A study of Mus musculus with 6 samples.

Results

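Mitosis and cytokinesis genes were examined in RNA sequencing libraries of whole hearts from 3 female WT mice and 3 female mice with a global deletion of the sodium-bicarbonate cotransporter variants NBCe1-B and NBCe1-C (NBCe1-B/C KO, here KOb/c), all between 4 and 5 weeks of age. The members were 40 genes given by name, and all 40 were found among the 16018 genes of the deposited table. The deletion is carried in every tissue and leaves NBCe1-A, the variant known for acid-base control in the kidney, in place, so that no difference can be assigned to heart muscle cells. Both genotypes descend from matings between heterozygotes on a C57BL/6J background, and KOb/c mice are known to die early. The labels describe each library as a separate heart, and the values are the read counts of each library over its own scaling factor, called normalized counts below.

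These genes encode the machinery that separates chromosomes and then divides the cell. Their RNA is made as a cell prepares for mitosis and is broken down or shut off afterwards, so that tissues with few dividing cells hold little of it. Heart muscle cells of the mouse largely leave the cell cycle soon after birth, whereas endothelial cells, fibroblasts and immune cells of the heart can still divide. In RNA from a whole heart, fewer dividing cells and less of this RNA in each dividing cell cannot be told apart.

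The libraries held between 41364857 and 49100802 reads on genes, and *Slc4a4*, the gene that encodes NBCe1, went against a label. It was counted at 264, 945 and 269 (normalized) in replicates 1, 2 and 3 labelled KOb/c, against 675, 822 and 789 in those of WT. The library labelled KOb/c replicate 2 was therefore above each WT library, and results are given with and without it. WT replicate 1 stood apart from the other libraries in the genes described here, and results are also given without it. The number in its label also lies far from those of the other 5 libraries, which follow each other closely. The labels do not say what the numbers mark, and their part in the result was not tested.

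Across the 6 libraries, 39 of the 40 genes had a lower mean in KOb/c than in WT hearts, against 50.8% of all 16016 genes tested. The exception was *Cenpf*. The median log2 fold change of the 40 genes, KOb/c minus WT on log2(normalized count + 1), was -1.11 (-0.004 over all genes tested), and the genes ranged from -1.81 for *Birc5* to 0.13 for *Cenpf*. A log2 fold change at or below -1 was found for 27 of the 40 genes and for 0.855% of all genes tested. By rank, 39 of the 40 were among the 5% of genes with the lowest log2 fold changes and 30 among the lowest 1%. No member passed the threshold of 0.05 in limma with Benjamini-Hochberg adjustment over all genes, where 0% of all genes passed.

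The difference between the groups was carried unequally by the WT hearts. WT replicate 1 had the highest value of the 6 libraries for 39 of the 40 genes, against 23.1% of all genes tested, and in the same 39 genes WT replicate 3 came next, an order found for 8.58% of all genes. Over the 39 genes other than *Cenpf*, WT replicate 1 was a median of 4.30 times the KOb/c mean (range 2.5 to 7.42), WT replicate 3 was 2.02 times (1.51 to 3.21), and WT replicate 2 was 1.19 times (0.768 to 2.12). In 20 of the 40 genes WT replicate 2 did not exceed the highest KOb/c library. For *Mki67*, *Aurkb*, *Tpx2*, *Bub1*, *Ndc80*, *Cenpe*, *Sgo1*, *Cdc20* and *Kif20a*, only the library labelled KOb/c replicate 2 was above WT replicate 2. In the rest of these 20 genes KOb/c replicate 3 was above WT replicate 2. At the low end, KOb/c replicate 1 was the lowest library for 35 of the 40 genes, against 25.5% of all genes tested.

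**Figure D1:**
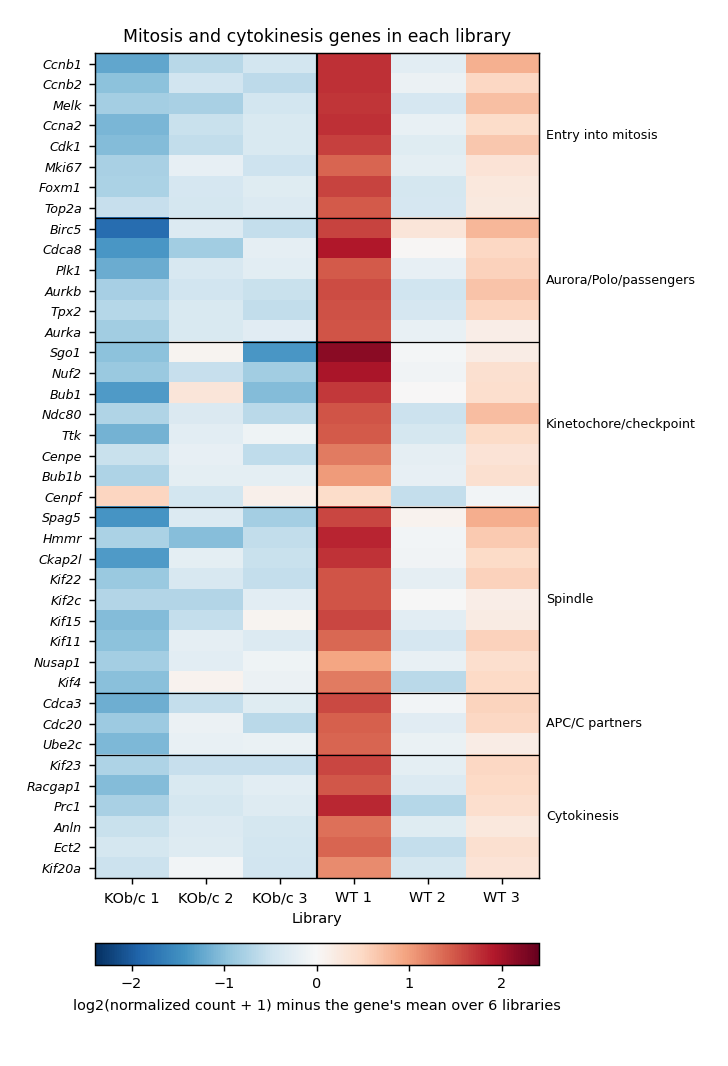
Heat map of the 40 genes (rows, grouped by role and ordered by log2 fold change within a role) in the 6 libraries (columns); colour gives log2(normalized count + 1) minus the gene's mean over the 6 libraries. WT replicate 1 is the highest column in 39 of 40 rows and WT replicate 3 the next, while WT replicate 2 resembles the KOb/c libraries, and the row of *Cenpf* breaks the pattern.

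The same pattern was seen in the sums of the 39 genes other than *Cenpf*. Summed, these genes had 2490, 3547 and 3380 normalized counts in KOb/c replicates 1, 2 and 3. In WT replicate 1 the sum was 12800, in replicate 2 it was 3698 and in replicate 3 it was 6068. WT replicate 2 thus lay just above the highest KOb/c library, and the other WT libraries lay far above it. These sums rest on 2509 to 3811 reads in a KOb/c library and on 3557 to 12495 in a WT library.

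Leaving out libraries changed the size of the difference. The median log2 fold change of the 40 genes was -0.65 without WT replicate 1, -1.59 without WT replicate 2 and -1.23 without the library labelled KOb/c replicate 2. The number of genes with a lower KOb/c mean was 39 without WT replicate 1, 40 without WT replicate 2 and 39 without KOb/c replicate 2. The size of the difference therefore depended on which WT hearts were included, whereas its direction for the 39 genes held with any 1 WT library left out. In each of these fits WT replicate 1 or WT replicate 3 remained. WT replicate 2 alone was below the KOb/c mean for *Kif4*, *Prc1*, *Ect2* and *Kif20a*, at 0.7679, 0.8725, 0.8757 and 0.9359 times that mean.

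**Figure D2:**
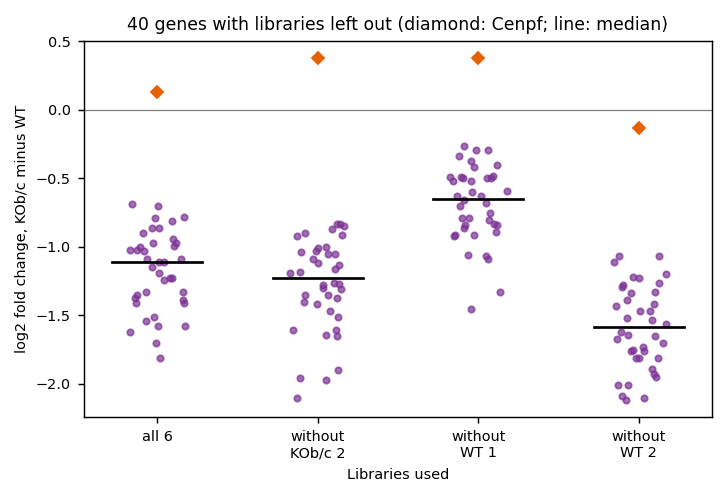
Log2 fold change (KOb/c minus WT) of each of the 40 genes with all 6 libraries and with KOb/c replicate 2, WT replicate 1 or WT replicate 2 left out; circles are genes, the diamond is *Cenpf*, and lines are medians (-1.11, -1.23, -0.65 and -1.59). The circles stay below 0 in each column, nearest to it without WT replicate 1.

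Promoters of mitotic genes are known for a pair of short elements. The cell cycle genes homology region, whose usual letters are TTTGAA or TTTAAA, is bound by the DREAM complex in resting cells and by B-MYB and FOXM1 complexes in dividing cells, and the CCAAT box is bound by the factor NF-Y. RefSeq promoter windows on GRCm38.p6, each from 250 bases before to 50 bases after an annotated start, were matched by symbol for 35 of the 40 genes, with 2 windows each for *Ect2* and *Prc1* and so 37 windows in all. Both strands were searched, and overlapping matches were each counted. TTTGAA was in 29 of the 37 windows (78.4%) and in 17.9% of all 32851 windows. TTTAAA was in 8 of 37 (21.6%), against 13.2% of all windows, and CCAAT was in 29 of 37 (78.4%), against 37.4%. CCAAT together with either of the other words was in 27 of the 37 windows (73%) and in 10.7% of all windows, while 3 of the 37 held none of these letters, against 45.7%. These matches describe the letters only and do not show that a factor was bound.

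The stretches below are the 150 bases before the RefSeq start, read 5′ to 3′ along the gene. For each role they belong to the gene with the lowest log2 fold change whose stretch overlaps no annotated exon, and *Cenpf* is added because its values differed from those of the other genes. No gene of the anaphase-promoting complex group had such a stretch. Capitals mark CCAAT or its reverse complement, and neither of the other words falls in these stretches. *Ccnb2* is at chr9:70421555-70421704 (minus strand), *Birc5* at chr11:117849087-117849236 (plus), *Nuf2* at chr1:169531465-169531614 (minus), *Hmmr* at chr11:40733438-40733587 (minus), *Kif23* at chr9:61946800-61946949 (minus) and *Cenpf* at chr1:189688087-189688236 (minus).
Ccnb2: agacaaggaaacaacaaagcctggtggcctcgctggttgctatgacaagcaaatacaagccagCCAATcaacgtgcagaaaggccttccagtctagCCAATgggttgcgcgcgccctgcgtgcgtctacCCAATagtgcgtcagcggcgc
Birc5: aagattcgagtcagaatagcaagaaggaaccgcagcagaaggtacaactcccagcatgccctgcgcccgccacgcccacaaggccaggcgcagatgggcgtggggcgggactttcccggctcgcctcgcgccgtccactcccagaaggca
Nuf2: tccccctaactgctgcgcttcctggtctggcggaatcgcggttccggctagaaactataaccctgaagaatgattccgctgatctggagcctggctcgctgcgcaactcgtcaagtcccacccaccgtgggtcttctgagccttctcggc
Hmmr: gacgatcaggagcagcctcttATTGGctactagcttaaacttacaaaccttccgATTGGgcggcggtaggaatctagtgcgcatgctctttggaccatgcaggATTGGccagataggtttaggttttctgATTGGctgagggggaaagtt
Kif23: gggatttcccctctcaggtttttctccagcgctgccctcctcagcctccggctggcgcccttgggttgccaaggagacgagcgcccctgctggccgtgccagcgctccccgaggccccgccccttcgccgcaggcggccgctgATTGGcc
Cenpf: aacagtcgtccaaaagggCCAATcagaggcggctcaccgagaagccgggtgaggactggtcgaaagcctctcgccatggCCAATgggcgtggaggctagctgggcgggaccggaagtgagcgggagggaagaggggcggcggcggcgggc

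In these stretches *Hmmr* holds 4 CCAAT words, *Ccnb2* 3, *Cenpf* 2 and *Kif23* 1, while *Birc5* and *Nuf2* hold none. The window of *Cenpf* also has TTTGAA just past the start, as those of *Kif23*, *Ccnb2* and *Hmmr* do. It further has TTTAAA at position -154 from the start. That word is in the window of *Birc5* but not in those of *Kif23*, *Ccnb2*, *Hmmr* and *Nuf2*. Whether these words bear on the values of *Cenpf* was not tested.

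Of the 8 genes for entry into mitosis, all had a lower KOb/c mean, with a median log2 fold change of -1.33 and a range from -1.58 (*Ccnb1*) to -0.86 (*Top2a*). *Mki67* (ENSMUSG00000031004; chromosome 7 of GRCm38, 135689784 to 135716361) encodes Ki-67, which coats mitotic chromosomes and is used to mark dividing cells. Its normalized counts were 276, 412.5 and 335 in KOb/c and 1238, 399 and 589 in WT replicates 1, 2 and 3. WT replicate 2 was below the library labelled KOb/c replicate 2 but above the other KOb/c libraries, so the groups overlapped. The log2 fold change was -0.97 with a standard error of 0.35 (adjusted p = 0.149, limma with Benjamini-Hochberg adjustment). *Top2a* (ENSMUSG00000020914; chromosome 11, 98992943 to 99024189) encodes the topoisomerase that untangles sister chromatids. It had 229, 249 and 269 normalized counts in KOb/c and 935, 253 and 394 in WT, and again WT replicate 2 could not be separated from KOb/c. *Ccna2*, which encodes cyclin A2, had 71.5, 106.5 and 119.7 in KOb/c and 520.4, 136 and 209 in WT. Here the groups did not overlap, and the log2 fold change was -1.33 with a standard error of 0.43 (adjusted p = 0.12, limma). The groups also did not overlap for *Ccnb1* and *Ccnb2*, which encode the B-type cyclins, for *Cdk1*, the kinase they activate, and for the kinase gene *Melk*. They overlapped for *Foxm1*, which encodes a transcription factor of mitotic genes (log2 fold change -0.97).

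**Figure D3:**
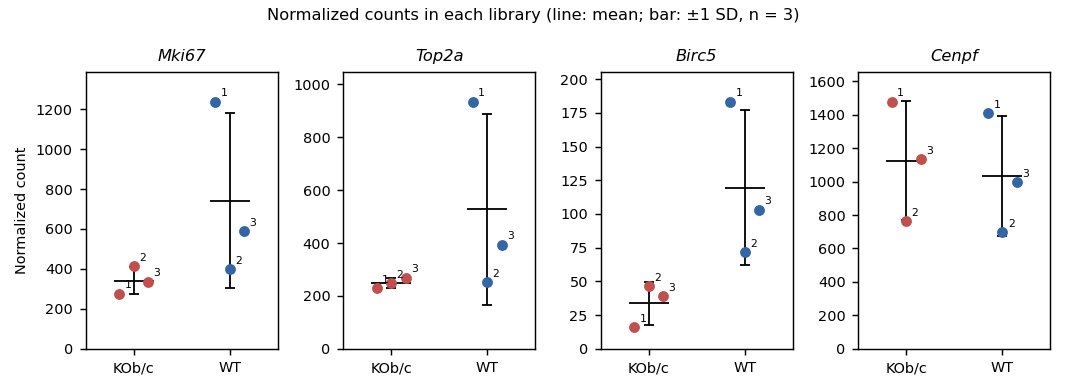
Normalized counts of *Mki67*, *Top2a*, *Birc5* and *Cenpf* in the 3 KOb/c and 3 WT libraries (points, with replicate numbers; line and bar, mean ± SD). For *Mki67* and *Top2a* WT replicate 2 lies at the level of the KOb/c libraries, for *Birc5* the groups do not overlap, and for *Cenpf* both groups span about the same range.

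All 6 genes of the Aurora and Polo kinases and the chromosomal passenger complex had a lower KOb/c mean, with a median log2 fold change of -1.21. The kinase Aurora A, which organizes the spindle poles, is encoded by *Aurka*, and *Tpx2* encodes the protein that activates it on the spindle. Normalized counts of *Tpx2* were 111, 138.5 and 118 in KOb/c and 514, 134 and 255 in WT. Those of *Aurka* were 41.7, 57.9 and 62.1 in KOb/c and 215, 66.5 and 84.6 in WT. WT replicate 2 was inside the KOb/c range for *Tpx2* and just above it for *Aurka*. For *Tpx2* only the library labelled KOb/c replicate 2 was above WT replicate 2. Aurora B, encoded by *Aurkb*, works with survivin (*Birc5*) and borealin (*Cdca8*) at the centromere. *Cdca8* had 24.8, 37.2 and 57.6 normalized counts in KOb/c and 256, 67.6 and 93.8 in WT, with no overlap, and its log2 fold change was -1.62 with a standard error of 0.48 (adjusted p = 0.106, limma). *Birc5* (ENSMUSG00000017716; chromosome 11, 117849251 to 117855743) had the lowest log2 fold change of the 40 genes. It was at 15.9, 46.5 and 39.02 in KOb/c and 183, 71.7 and 103 in WT, so that every WT heart was above every KOb/c heart. On the log2 scale KOb/c minus WT was -1.81 (standard error 0.45, adjusted p = 0.0844, limma), and -1.45 without WT replicate 1. *Aurkb* and *Plk1*, the gene of Polo-like kinase 1, had log2 fold changes of -1.19 and -1.23.

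In the kinetochore and spindle checkpoint group, 7 of 8 genes had a lower KOb/c mean, and the group median was -1.08. *Bub1b* encodes a checkpoint protein that holds back anaphase until chromosomes are attached. It had 108, 155 and 154 normalized counts in KOb/c and 373, 158 and 238 in WT, and its log2 fold change was -0.81 with a standard error of 0.29 (adjusted p = 0.147, limma). The groups did not overlap, but WT replicate 2 and KOb/c replicate 2 were nearly equal. *Cenpe* encodes a kinesin that moves chromosomes to the spindle equator, and was at 64.5, 81.7 and 61.2 in KOb/c and 224, 81.1 and 118 in WT. Here WT replicate 2 was within the KOb/c range, but only the library labelled KOb/c replicate 2 was above it. The checkpoint genes *Bub1* and *Ttk* had log2 fold changes of -1.41 and -1.0, and *Nuf2* and *Ndc80*, partners in the complex that grips microtubules, -1.51 and -1.15. *Sgo1*, which encodes the protector of centromeric cohesion, was at -1.54 and had the fewest reads of the 40 genes, 9 in KOb/c replicate 3, where counting error alone is 33.3%.

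*Cenpf* (ENSMUSG00000026605; chromosome 1, 189640606 to 189688086) encodes a large microtubule-binding protein of the outer kinetochore. Its normalized counts were 1479, 764 and 1134 in KOb/c and 1410, 698 and 996 in WT replicates 1, 2 and 3. The groups overlapped fully, and KOb/c replicate 1, the lowest library for 35 other members, was the highest for *Cenpf*. The log2 fold change was 0.13 with a standard error of 0.28 (adjusted p = 0.82, limma). Its sign depended on the processing, with -0.11 once trends with transcript length and GC content had been removed, -0.09 without KOb/c replicate 1 and -0.13 without WT replicate 2. *Cenpf* made up 37.3% of the summed normalized counts of the 40 genes in KOb/c replicate 1 and 9.92% in WT replicate 1. It is also the longest of them, with a longest annotated transcript of 11.1 kb, and per kb its normalized count was 92.9 in WT and 101 in KOb/c hearts.

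All 9 genes of spindle motors and microtubule proteins had a lower KOb/c mean (median log2 fold change -1.11). *Kif11* encodes the kinesin that pushes the spindle poles apart. It had 76.4, 130.3 and 122 normalized counts in KOb/c and 394, 115 and 225 in WT, and WT replicate 2 was again among the KOb/c values. *Nusap1*, which encodes a microtubule bundling protein, had 79.4, 117 and 129.5 in KOb/c and 272, 124 and 185 in WT, also with overlap. For *Kif22*, a kinesin on chromosome arms, the values were 52.6, 75.5 and 65.6 in KOb/c and 281, 85.2 and 145 in WT. These did not overlap, and the log2 fold change was -1.23 with a standard error of 0.38 (adjusted p = 0.111, limma). The lowest adjusted p of the 40 genes was that of *Spag5* (ENSMUSG00000002055; chromosome 11, 78301529 to 78322457), which encodes the spindle protein astrin. It was at 21.8, 47.5 and 33.7 in KOb/c and 184, 63.4 and 110.3 in WT, so that its log2 fold change was -1.70 with a standard error of 0.40 (adjusted p = 0.0834, limma). The spindle genes *Hmmr* and *Ckap2l* had log2 fold changes of -1.58 and -1.41 without overlap, and the kinesin genes *Kif2c*, *Kif15* and *Kif4* -1.11, -1.03 and -0.70, of which *Kif2c* alone was without overlap.

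The anaphase-promoting complex marks cyclins and securin for destruction, and its activator *Cdc20*, its ubiquitin-conjugating enzyme *Ube2c* and its substrate *Cdca3* all had a lower KOb/c mean (median log2 fold change -1.11). *Cdc20* was at 78.4, 130.3 and 92.2 in KOb/c and 394, 119.5 and 203 in WT, with WT replicate 2 below KOb/c replicate 2. Normalized counts of *Ube2c* were 50.6, 96.1 and 96.7 in KOb/c and 286, 96.7 and 123 in WT, so that WT replicate 2 and KOb/c replicate 3 were almost equal. *Cdca3* was at 26.8, 41.4 and 50.6 in KOb/c and 188.5, 59.2 and 90.7 in WT, without overlap (log2 fold change -1.37, standard error 0.41, adjusted p = 0.107, limma).

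The cytokinesis genes had the median log2 fold change nearest to 0 of the 6 groups, at -0.94, with all 6 lower in KOb/c. *Racgap1* and *Kif23* encode the partners of centralspindlin, which positions the cleavage furrow. *Racgap1* had 111, 179 and 193 normalized counts in KOb/c and 644, 183 and 321 in WT, with overlap, whereas *Kif23* had a log2 fold change of -1.24 without overlap. *Prc1*, the gene of the protein that bundles microtubules between the separating chromosomes, had 116, 148 and 161 in KOb/c and 699.7, 124 and 267 in WT. WT replicate 1 was here 5.66 times WT replicate 2, the widest ratio among the 39 genes other than *Cenpf*. *Anln*, which encodes anillin, the scaffold of the contractile ring, had 127, 148 and 137.5 in KOb/c and 465, 151 and 223 in WT. Its groups did not overlap, and the log2 fold change was -0.86 with a standard error of 0.34 (adjusted p = 0.179, limma). *Ect2*, which encodes the activator of RhoA at the furrow, and the kinesin gene *Kif20a* had log2 fold changes of -0.79 and -0.69, both with overlap.

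**Figure D4:**
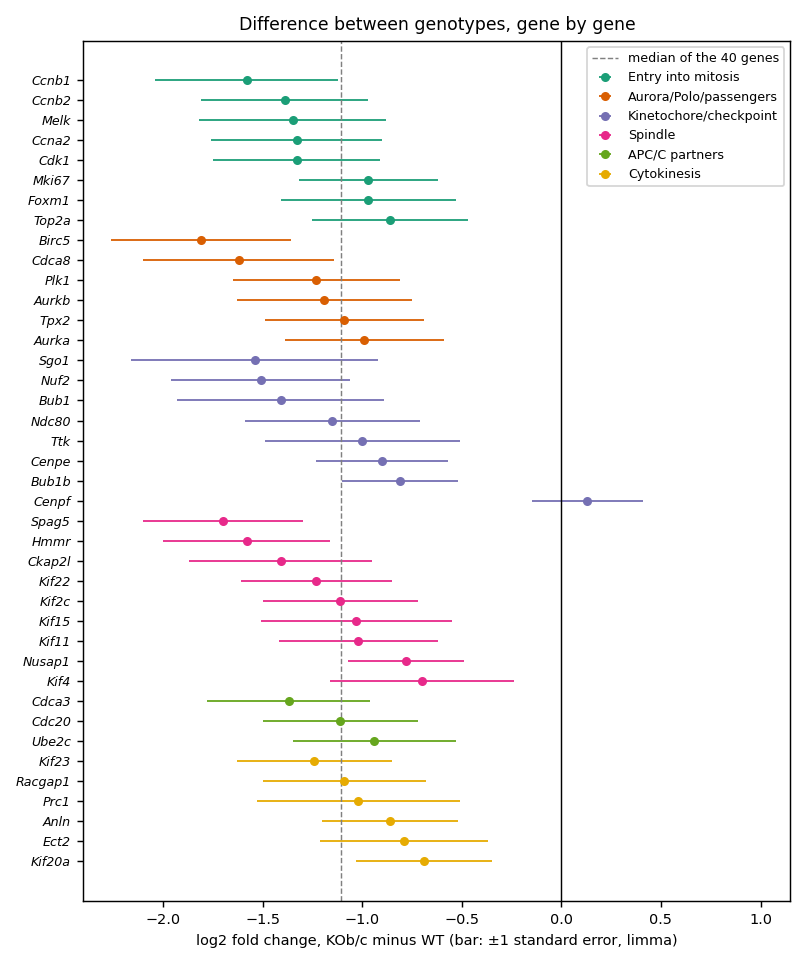
Log2 fold change (KOb/c minus WT) of the 40 genes by role, with bars of ±1 standard error from limma and a dashed line at their median of -1.11. The 39 genes other than *Cenpf* lie between -1.81 and -0.69, and *Cenpf* is at 0.13.

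Counted over the 40 genes, the lowest adjusted p by limma with Benjamini-Hochberg adjustment was 0.0834, and 3 genes had one under 0.1 with a lower KOb/c mean (*Spag5*, *Birc5* and *Hmmr*), where 3.03% of all genes did. An unadjusted p under 0.05 with a lower KOb/c mean was found for 31 of 40 genes, against 10.5% of all genes tested. Without the library labelled KOb/c replicate 2 it was found for 28 of 40, against 8.92% of all genes in that fit. It was found for 15 of 40 without WT replicate 1, against 6.46%, and for 15 without KOb/c replicate 1, against 7.74%. All 3 KOb/c hearts were below all 3 WT hearts for 20 of 40 genes, against 14.6% of all genes, and no member had the opposite order. DESeq2 on the recovered reads gave an adjusted p under 0.05 to 11 of the 40 genes, all lower in KOb/c, where 5.02% of the genes with an adjusted p were lower. They were *Ccnb2*, *Kif23*, *Kif22*, *Ckap2l*, *Cdc20*, *Kif11*, *Anln*, *Bub1b*, *Cenpe*, *Nusap1* and *Ube2c*, with adjusted p from 0.00213 to 0.0428 (DESeq2). For 19 members DESeq2 gave no adjusted p, since their mean counts were below the cutoff it set in this fit. That cutoff is set anew in each fit. With libraries left out, DESeq2 gave an adjusted p to fewer or more members. Without WT replicate 2 it called 37 of the 38 members that had an adjusted p, against 4.23% of all genes with one, and without the library labelled KOb/c replicate 2 it called 1 of 14, against 3.67%. Only 1 member had an adjusted p without WT replicate 1, and 2 had one without KOb/c replicate 1, and 0 of these were called, against 1.82% and 4.13% of all genes with one. edgeR called 0, with a lowest adjusted p of 0.0806, and an unadjusted p under 0.05 with a lower KOb/c mean for 38 genes, against 10.7% of all genes tested.

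The spread between the WT hearts rested largely on WT replicate 1. The median SD of log2(normalized count + 1) over the 40 genes was 0.93 among the WT hearts and 0.33 among the KOb/c hearts, where it was 0.13 in either group over all genes. The 40 genes also had lower counts, with a median of the mean normalized count of 106.5, against 561.6 over all genes tested. The part of counting error in these SDs was not tested. The WT SD was the larger for 39 of the 40 genes, against 48.45% of all genes tested. Without WT replicate 1 the median WT SD was 0.47, and it was larger than the KOb/c SD for 29 of the 40 genes, against 39.73% of all genes. Among the KOb/c hearts, the highest library was a median of 1.5 times the lowest over the 39 genes other than *Cenpf*.

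Levels can be compared between genes only per length. As normalized counts per kb of the longest annotated transcript, WT levels over the 39 genes other than *Cenpf* ran from 14.1 for *Sgo1* to 133 for *Cdc20* (median 51.5), and KOb/c levels from 3.92 for *Sgo1* to 55.9 for *Cdc20* (median 19.2). *Cdc20*, *Ccnb2* and *Top2a* had the highest WT levels per kb of the 40 genes, at 133, 123 and 101. This order rested on WT replicate 1, without which *Cdc20* was at 90.0, *Cenpf* at 76.1, *Ccnb2* at 75.0 and *Top2a* at 61.9. Part of the exonic bases of *Kif20a* (29.3%) and *Ube2c* (22.8%) is shared with a gene on the opposite strand, *Cdc23* and *Tnnc2*, and without knowing how strand was treated their reads cannot be told apart.

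Other genes of the cell cycle were compared in the same fit. Of 50 further mitosis genes, 49 had a lower KOb/c mean, with a median log2 fold change of -0.87. By limma with Benjamini-Hochberg adjustment, 0 had an adjusted p under 0.05. An unadjusted p under 0.05 was found for 27, all of them lower, against 10.5% of all genes tested. WT replicate 1 was the highest library for 49 of the 50. Without it, 47 of the 50 had a lower KOb/c mean, and the median log2 fold change was -0.51. The members of this list with the highest means differed little between the groups. *Pttg1*, which encodes securin, had a log2 fold change of -0.10, and *Bub3*, a checkpoint gene, -0.09. *Dlgap5*, a spindle gene chosen after its values were seen, had the only adjusted p under 0.1 in the list (log2 fold change -1.47, adjusted p = 0.0815, limma).

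Of 36 DNA replication genes, 34 had a lower KOb/c mean, with a median log2 fold change of -0.34. WT replicate 1 was the highest library for 33. Without it, 30 of the 36 had a lower KOb/c mean, and the median was -0.17. With all 6 libraries, limma gave 0 of them an adjusted p under 0.05. An unadjusted p under 0.05 was found for 11, all lower, against 10.5% of all genes tested. The genes with the highest means were *Pcna*, the sliding clamp of DNA polymerase (log2 fold change -0.24), and *Ung*, a uracil glycosylase (-0.15). Chosen after their values were seen, *Gins2*, *E2f1* and *Tk1* had adjusted p under 0.1 by limma, with log2 fold changes of -1.03, -0.91 and -0.89. The median deviation from the gene mean in WT replicate 1 was 1.52 on the log2 scale for the 40 genes, 1.28 for the 50 further mitosis genes and 0.58 for the replication genes. In KOb/c replicate 1 it was -0.88, -0.60 and -0.28.

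**Figure D5:**
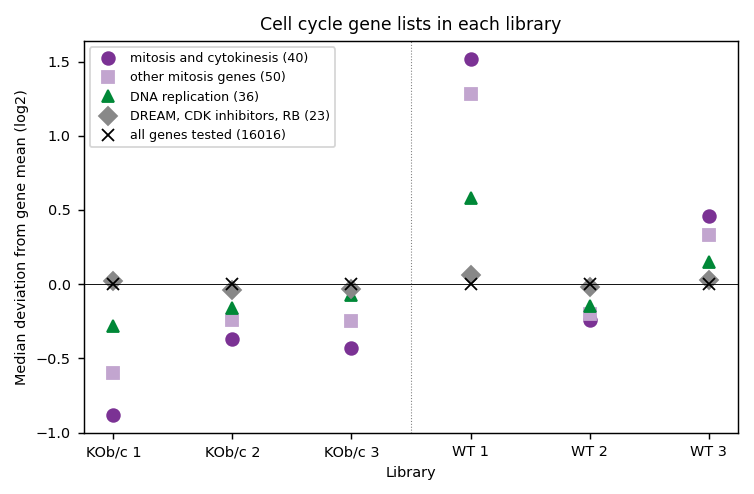
Median deviation from the gene mean, on the log2 scale, of the 40 mitosis and cytokinesis genes, 50 further mitosis genes, 36 DNA replication genes, 23 genes of the DREAM complex, CDK inhibitors and RB family, and all 16016 genes tested, in each library. Cell cycle genes are highest in WT replicate 1 (1.52, 1.28 and 0.58) and lowest in KOb/c replicate 1 (-0.88, -0.60 and -0.28), while the DREAM list stays between -0.04 and 0.06.

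The list of DREAM subunits, CDK inhibitors and RB family genes, which restrain the cell cycle or control mitotic promoters, had no common direction. Of 23 genes, 13 had a lower KOb/c mean, and the median log2 fold change was -0.05, with a range from -1.02 to 0.43. By limma 0 had an adjusted p under 0.05. An unadjusted p under 0.05 was found for 3 lower and 4 higher genes. Over all 16016 genes tested, 10.5% were lower at that p and 2083 genes were higher. *Rbbp4*, a DREAM subunit, had a log2 fold change of -0.05 and *Tfdp2*, the partner of E2F factors, 0.43. *Cdkn1b*, which encodes the CDK inhibitor p27, was chosen after its values were seen. It had 3009, 2816 and 2899 normalized counts in KOb/c and 2425, 2496 and 2487 in WT, without overlap (log2 fold change 0.24, standard error 0.06, adjusted p = 0.0851, limma). *E2f4*, also chosen after its values were seen, was at -0.33 (adjusted p = 0.0991, limma).

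Markers of the cell types a heart sample can hold were summed in each library. The 7 cardiomyocyte markers, among them *Myh6* and *Tnnt2*, summed to between 2383000 and 2657000 normalized counts in KOb/c and between 2007000 and 2147000 in WT, so heart muscle RNA was abundant in each library. Of these 7, 4 were higher in KOb/c, and none of the markers listed in the table was at 0. The 7 endothelial markers summed to 44970 to 48360 in KOb/c and 43680 to 44790 in WT (5 higher in KOb/c), the 7 fibroblast markers to 82300 to 97830 and 83490 to 90070 (4 higher), and the 7 pericyte and smooth muscle markers to 69230 to 80500 and 58660 to 71390 (5 higher). None of these sums was highest in WT replicate 1, and the part of these cell types in the result was not tested. The 7 macrophage markers summed to 8500 to 9097 in KOb/c and 9235 to 10290 in WT, 4 of 7 being lower in KOb/c, and their sum, like the mitotic genes, was highest in WT replicate 1, next in WT replicate 3 and lowest in KOb/c replicate 1; its part in the result was not tested. The 5 adipose markers in the table, all lower in KOb/c, summed to 16680 in KOb/c replicate 1 and to between 23010 and 28320 in the other libraries. KOb/c replicate 1 was the lowest library for all 5. Their median deviation from the gene mean (log2) was -3.39, 0.16 and 1.47 in KOb/c and -0.0, 1.25 and 0.29 in WT replicates 1, 2 and 3. The part of these markers in the low values of KOb/c replicate 1 was not tested.

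Dividing cells are also common in thymus and in blood-forming tissue. Of 11 thymus and lymphocyte markers, 9 were in the table, of which 8 had a lower KOb/c mean, and their sum was 316 to 498 normalized counts in KOb/c and 326, 799 and 342 in WT replicates 1, 2 and 3. It was highest in WT replicate 2, where the mitotic genes were low, and WT replicate 1 was among the lowest libraries. The 7 erythroid markers summed to 31120, 29480 and 133700 in KOb/c and 52380, 117200 and 68730 in WT. They were highest in KOb/c replicate 3 and WT replicate 2, and 6 of the 7 had a lower KOb/c mean. The part of thymus or blood-forming tissue in the result was not tested.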

How the data were processed

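The authors deposited a table of normalized signal per gene, that is, each library's read counts over its own scaling factor, for 16018 genes and 6 hearts. Total RNA (column kit) was run on an Illumina HiSeq with paired reads. The submitters' processing notes name Trimmomatic 0.36, STAR 2.5.2b, featureCounts, Subread 1.5.2, DESeq2 and the build GRCm38, without their roles. The annotation, the strand setting and the filter on low counts are not given in the sources used here. Divided by the value of 1 read, 100% of values in each library were whole within 0.1, with divisors of 0.962 to 1.128, so reads were recovered. The divisors were not proportional to the reads on genes, with 1.008 for 48437507 reads in KOb/c replicate 1 and 1.128 for 49100802 in KOb/c replicate 3. Symbols, positions and lengths of the longest transcript come from GENCODE M21 (15980 genes).

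KOb/c was compared with WT on the log2(normalized count + 1) scale over 16016 genes with a mean of at least 10. The two-sided test was that of limma 3.58.1 in R 4.3.3, with its variance trend, Benjamini-Hochberg adjusted, at a threshold of 0.05. DESeq2 1.42.0 and edgeR 4.0.16 on the recovered reads were alternatives, as were other pseudocounts, filters, scalings and a length and GC correction with splines of 5 degrees of freedom. The limma, DESeq2 and edgeR fits were tested on simulated reads with known changes. The members and lists were chosen with earlier results of these data known. Genes named are *Slc4a4*, the 3 members with the highest mean in each role, those with the lowest and the highest log2 fold change, any past the threshold, and the 2 genes with the highest mean of each further list, with other members given by their log2 fold change. *Spag5* and *Sgo1* were given values after these were seen. The labels name no batch, and p-values measure the spread between these libraries only.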

Additional observations from a re-analysis of the deposited data

How the results depend on the processing

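For the 40 genes, limma called 0 under each pseudocount, filter and scaling tried, without the variance trend, with the length and GC correction and with each library left out, and edgeR called 0. DESeq2 called 11 of them and 1587 of all genes. With each library left out in turn, limma called 0 to 3 of all genes, the 3 being *Nppb*, *Slc4a4* and *Doc2g* without KOb/c replicate 2. In an alternative added after seeing the data, DESeq2 with a library left out called 0 to 37 of the 40 genes, and the number with an adjusted p moved with it. It called 0 of 2 without KOb/c replicate 1, 0 of 1 without WT replicate 1, 1 of 14 without KOb/c replicate 2, 1 of 9 without WT replicate 3, 9 of 33 without KOb/c replicate 3 and 37 of 38 without WT replicate 2, so that the calls at 0 rest on fewer genes tested. For the fits without WT replicate 3 and without KOb/c replicate 3, the share of all genes called was not counted. The median log2 fold change of the 40 genes ran from -1.588 to -0.649 over the libraries left out and from -1.327 to -1.046 under the other settings, and 39 or 40 genes were lower in KOb/c (36 of the 37 with a mean of at least 50). *Cenpf* changed sign with the length and GC correction (-0.11) and over the libraries left out (-0.13 to 0.38). Without the variance trend, 17 rather than 31 of the 40 genes had an unadjusted p under 0.05, and the share of all genes in that fit was not counted.

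Over all genes, an unadjusted p under 0.05 was found for 1681 lower and 2083 higher genes, for 2537 lower and 1258 higher after rescaling to the same total, and for 1936 lower and 1917 higher after quantile normalization. With the replicate number as a replicate block, 0 genes were called and the median of the 40 genes was -1.109. There, 32 of the 40 had an unadjusted p under 0.05, and the share of all genes in that fit was not counted. Correlations of deviations between libraries with the same number were 0.227, 0.072 and -0.029. Between KOb/c and WT libraries with unlike numbers they ran from -0.183 to 0.155. Whether the numbers pair the libraries cannot be told from these values. Few reads limit the genes at the low end, with 9 members at 100 or more reads in every library.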
